A study of Mus musculus with 35 samples.

Results

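Genes of the sine oculis homeobox and eyes absent (Eya) families encode partners in transcription that pattern the head, the ear, the kidney and muscle. Described here are 7 of them, Six2, Six4, Six5, Eya1, Eya2, Eya3 and Eya4, taken by name from the 23366 genes of an RNA count table. The cells were mouse cranial neural crest of stage E12.5, the migratory population that builds much of the facial skeleton and connective tissue. The study compared such cells with and without UTX, the product of Kdm6a on the X chromosome, an enzyme that removes methyl groups from histone H3. Each of the 3 groups had 2 RNA libraries. In the wild-type males (wt1, wt2) the embryos carried Wnt1-Cre and a Rosa-Tomato reporter. The male knockouts (mko1, mko2) were Utx fl/y with Wnt1-Cre, and the female knockouts (fko1, fko2) were Utx fl/fl with Wnt1-Cre. All 3 groups therefore carried the Cre driver and the reporter, and the gene is lost only where the Wnt1 driver has been active. Tissue was taken in front of the otic vesicle and sorted for Tomato and against the dead-cell dye DAPI. The wild-type libraries analysed here were all male, so in the female comparison sex and genotype cannot be told apart. The labels do not say whether the libraries of a group came from separate embryos, so p-values measure the spread between these libraries, which may be technical.

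Sine oculis homeobox proteins such as Six2 are factors that bind DNA through a homeodomain but activate poorly on their own. Eya proteins bind no DNA. They join a sine oculis protein through the conserved Eya domain, act as its co-activators, and carry tyrosine phosphatase activity. Dach and Groucho (Tle) proteins turn the same complexes towards repression, and Pax factors stand upstream of both families in several organs. In people, loss of EYA1 causes branchio-oto-renal syndrome, changes in EYA4 cause hearing loss, and Six2 marks frontonasal and palatal mesenchyme as well as kidney progenitors.

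RefSeq promoter entries, each covering 250 bases before a transcript's start to 50 after it (300 bases in all) on build GRCm38.p6, were found for 5 of the 7 genes: Six2 (chromosome 17), Six4 (12), Six5 (7), Eya3 (4) and Eya4 (10). Eya1 and Eya2 had no entry. The Six2 sequence is shown because Six2 was one of the genes whose 4 knockout libraries all lay above both wild-type libraries. It comprises the 250 bases before the start, on the minus strand at chr17:85688255-85688504, with CpG dinucleotides in capitals.
Six2 upstream: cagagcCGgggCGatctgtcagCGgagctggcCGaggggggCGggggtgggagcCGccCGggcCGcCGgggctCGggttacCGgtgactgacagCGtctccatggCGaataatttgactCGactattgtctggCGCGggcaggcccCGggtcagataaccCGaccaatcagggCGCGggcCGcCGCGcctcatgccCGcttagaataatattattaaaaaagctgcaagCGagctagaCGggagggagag
It held 26 CpG dinucleotides and 64.8% G and C, against medians of 6 and 52.4% over the same 250 bases of all 32851 entries, and 90.4% of entries held fewer CpG dinucleotides. The other 6 entries of the family held 13 to 35.

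MEF3 elements are the sites at which sine oculis proteins were first described in muscle genes. The core letters TCAGGTT were searched on both strands of the 300-base entries, a motif chosen after the data had been seen. It occurred in 1 of the 7 entries of the family, on the opposite strand of a Six4 entry, 97 bases before that transcript's start, and in 4.07% of all 32851 entries. The window around it, shown because it is the family's single match, lies on the minus strand at chr12:73113325-73113353 with the match in capitals.
Six4 window: ggcctgggggaAACCTGAtcggccagatc
A match describes these letters and is not evidence of binding.

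The libraries held 14513993 to 16350892 reads on genes, and all 7 genes passed the filter on low counts, as did 14521 genes in all. Each of the 7 was read at least 478 times in every library, at which counting error alone is 4.57% of the value. Levels below are counts per 1e+06 reads (CPM) with library sizes scaled by TMM, a normalisation that keeps a few very abundant genes from shifting the rest. One such gene, the ribosomal precursor Rn45s, took 0.383% and 0.937% of reads in wild type and 2.99% to 4.97% in the knockouts. Reads of the targeted gene Kdm6a were present in every knockout library (31.9 to 62.4 CPM, against 45.6 and 51.5 in wild type), and a count over the whole gene does not check a conditional deletion of part of it. The libraries fell into sets by the share of reads outside annotated genes. In wt1, mko2 and fko1, called set A here, the share was 21.3% to 21.96%, and in wt2, mko1 and fko2, set B, it was 27.46% to 27.77%. Each set holds 1 library of each genotype, and the labels name no such split.

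Facial mesenchyme markers were high in every library, with 7 markers such as Prrx1, Twist1 and Pdgfra summing to 2240 to 2810 CPM, and none of the 7 passed the test between both knockouts and wild type in the edgeR fit of 3 group means. Col1a1 took 1150 and 1230 CPM of these sums in wild type and 641 to 1010 in the knockouts, whereas 6 of the 7 markers had differences above 0 (median of the 7, 0.23). Skeletal muscle, where both families drive myogenic genes, contributed little: its 9 markers summed to 8.55 and 8.84 CPM in wild type, 6.75 and 6.96 in the male and 4.24 and 4.72 in the female knockouts. Of the 7 muscle markers tested 1 was called lower for the mean of both knockouts, where 5.11% of all genes tested passed. It was Des, an intermediate filament of muscle (log2 difference -1.39). Des had 22 and 22 reads in wild type, 12 and 10 in the male and 7 and 5 in the female knockouts. It met the filter on low counts only because of wild type, where it is high, so its call carries no weight here. Brain and neural tube markers differed by genotype. All 6 (Otx2, Sox1, Sox2, Neurog2, Olig2, Pax6) were lower in the knockouts by edgeR, and their sum was 150 and 175 CPM in wild type, 65.8 and 76 in the male and 56.9 and 74.5 in the female knockouts. The 8 markers listed for cranial ganglion neurons summed to 1460 and 1520 CPM in wild type, 907 and 1630 in mko1 and mko2, and 1320 and 1300 in fko1 and fko2. Most of the wt1 sum came from Tubb3 (859 CPM), Stmn2 (279) and Elavl3 (213), which are not particular to ganglion neurons. Elavl3, an RNA-binding protein of neurons, was lower in the knockouts by edgeR (log2 difference -0.94, adjusted p = 0.0446). Most of the list went the other way: 5 of the 8 had differences above 0, Isl1 (0.66) and Prph (1.63) among them, and the median was 0.22. Sums for cartilage were 789 to 1190 CPM and for Schwann cells 113 to 137, while epithelium stayed at 13.6 to 20.8, endothelium at 6.65 to 11.2, macrophages at 4.11 to 7.81 and blood at 1.92 to 11.2 with 1 of its 4 markers at 0 throughout; none of the tested markers of these 6 types passed. Fewer cells of a type and less RNA per cell cannot be told apart in these bulk libraries.

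**Figure D1:**
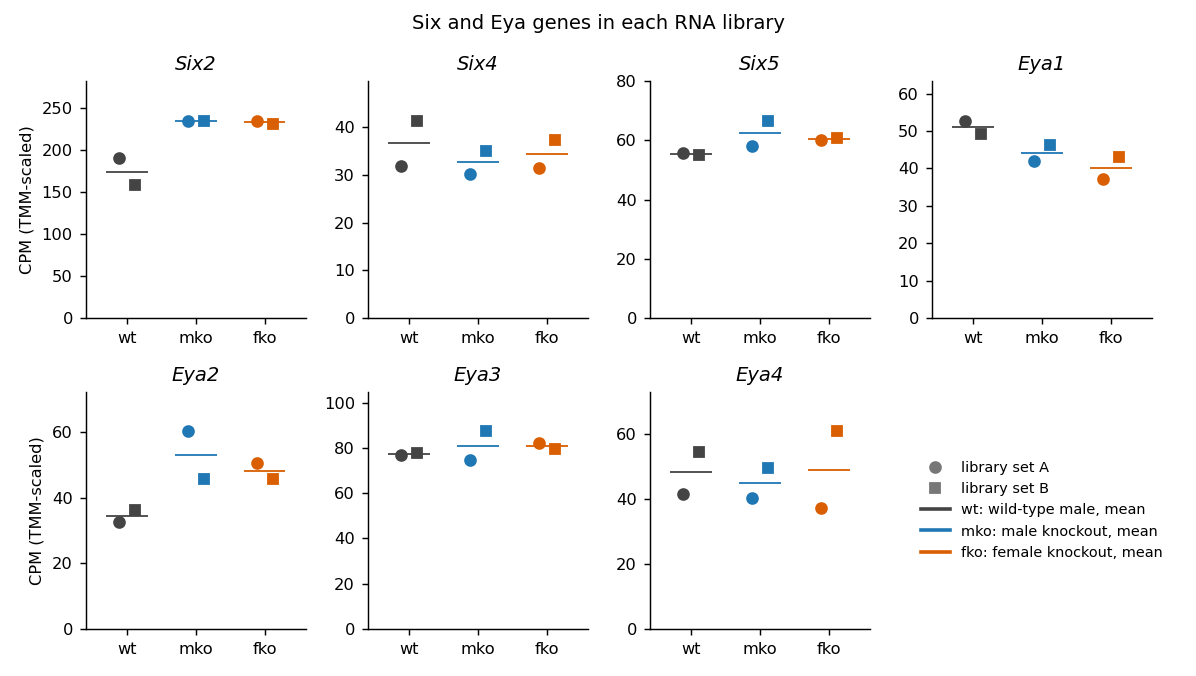
Level of each gene (y axis, CPM on TMM-scaled library sizes, starting at 0) in the 6 RNA libraries by group (x axis), with circles for library set A, squares for set B and a line at each group's mean. Six2, Six5 and Eya2 lie higher in all 4 knockout libraries than in both wild-type libraries and Eya1 lies lower, while Eya4 is higher in the set B library of every group.

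Among the DNA-binding members, Six2 showed the clearest separation. Its level was 190 and 158 CPM in wt1 and wt2, 235 and 234 in mko1 and mko2, and 234 and 231 in fko1 and fko2. The 4 knockout libraries lay within 231 to 235 CPM, above both wild-type libraries, and the wild-type pair was the more spread. Group means were 234 ± 0.418 in the male knockout, 233 ± 2.19 in the female knockout and 174 ± 22.6 in wild type (SD, n = 2 here and below). The order of the knockouts lies within their spread. In the edgeR fit of 3 group means, the log2 fold change was 0.43 (SE 0.139, 95% interval 0.12 to 0.75, adjusted p = 0.147) in the male and 0.42 (SE 0.139, 0.11 to 0.73, adjusted p = 0.176) in the female knockout, so neither passed the threshold of 0.05. The mean of both knockouts differed from wild type by 0.43 (SE 0.122, edgeR adjusted p = 0.0825). The size of the difference rested on the wild-type pair: without wt2 the last difference was 0.28 and without wt1 it was 0.57, neither past the threshold.

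Six4, a factor that shares many sites and functions with other family members in muscle and sensory ganglia, did not separate the genotypes. It stood at 31.9 and 41.4 CPM in wild type, 35.1 and 30.3 in the male and 31.5 and 37.3 in the female knockouts. The groups overlapped, and the library with the higher value in each genotype belonged to set B. Means of 36.6 ± 6.72, 34.4 ± 4.06 and 32.7 ± 3.42 CPM for wild type, female and male knockout did not differ beyond their spread. The difference between both knockouts and wild type was -0.13 on the log2 scale (SE 0.147, 95% interval -0.46 to 0.21, edgeR adjusted p = 0.596). In the GRCm38.p6 gene table Six4 overlaps Mnat1. As the strand setting of the counting is not stated, reads in the overlap are uncertain.

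Six5 lies next to Dmpk, the gene whose repeat expansion causes myotonic dystrophy, and loss of Six5 in mice causes cataracts. Six5 read 55.8 and 55.1 CPM in wild type, 66.7 and 58.1 in the male and 60.1 and 60.9 in the female knockouts. All 4 knockout libraries lay above both wild-type libraries by a narrow margin, and with plain library totals in place of TMM the groups overlapped. Means were 62.4 ± 6.08 in the male knockout, 60.5 ± 0.514 in the female knockout and 55.5 ± 0.48 in wild type, with neighbouring knockouts within their spread. The log2 difference of both knockouts from wild type was 0.15 (SE 0.11, 95% interval -0.10 to 0.40, edgeR adjusted p = 0.406). Six5 overlaps Bhmg1 in the same gene table. Dmpk itself read 22.4 and 47 CPM in wild type, 26.3 and 19.4 in the male and 22.1 and 27.4 in the female knockouts, overlapping because wt1 and wt2 differ so widely (log2 difference -0.54, SE 0.265, edgeR adjusted p = 0.225). With the library set as a term, taken up after the single genes, the Dmpk difference was -0.49 (edgeR adjusted p = 0.0315). In that fit 32.6% of all genes tested passed. Of the libraries later called set A, wt1 (22.4 CPM) lay close to mko2 (19.4) and fko1 (22.1), so the Dmpk difference rested largely on wt2.

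Of the co-activators, Eya1 was the one member lower in every knockout library. It read 52.8 and 49.2 CPM in wild type, 46.3 and 42 in the male and 37.2 and 43 in the female knockouts. The margin was small, from 46.3 in mko1 to 49.2 in wt2, and the means descended from 51 ± 2.54 in wild type through 44.1 ± 3.09 in the male to 40.1 ± 4.06 in the female knockout. The male and female knockout libraries overlapped. The log2 fold change was -0.35 in the female knockout (SE 0.135, 95% interval -0.65 to -0.04, edgeR adjusted p = 0.22) and -0.21 in the male knockout (SE 0.135, -0.51 to 0.10, edgeR adjusted p = 0.382). For the mean of both it was -0.28 (SE 0.116, edgeR adjusted p = 0.173).

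Eya2 had the largest difference of the 7 in the mean of both knockouts. Wild type read 32.6 and 36.3 CPM, the male knockouts 45.8 and 60.3, and the female knockouts 50.6 and 45.8. Every knockout library stood at least as high as 45.8 CPM, clear of both wild-type libraries, and mko2 stood apart above the other 3. Means were 53 ± 10.2 CPM in the male knockout, 48.2 ± 3.39 in the female knockout and 34.5 ± 2.6 in wild type. The knockouts did not differ beyond their spread. The log2 fold change was 0.62 in the male (SE 0.161, 95% interval 0.26 to 0.99, edgeR adjusted p = 0.0818) and 0.48 in the female knockout (SE 0.161, 0.12 to 0.85, edgeR adjusted p = 0.178), and for the mean of both 0.55 (SE 0.142, edgeR adjusted p = 0.0601). DESeq2 put the male difference (0.63, adjusted p = 0.0329) and the mean of both (0.56, adjusted p = 0.021) past the threshold, and Six2 in the mean of both as well (0.43, adjusted p = 0.0352). In edgeR the male difference passed when either female library was left out (0.62, adjusted p = 0.0314 without fko1, and 0.61, adjusted p = 0.0327 without fko2). Without mko2 it was 0.41 and without mko1 it was 0.81, neither past the threshold. The library with the highest Eya2, mko2, also had the highest sum of the markers listed for ganglion neurons (1630 CPM). The wild-type libraries, lowest in Eya2, had the next highest sums (1460 and 1520 CPM). The lowest sum was that of mko1 (907 CPM), whose Eya2 matched that of fko2 (sum 1300 CPM). The part of ganglion neurons in the Eya2 difference was not tested. Eya2 overlaps the non-coding gene Gm29993 in the GRCm38.p6 gene table.

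Eya3, the broadly expressed family member, had the smallest range over the libraries, 0.23 log2 units. It read 76.7 and 78 CPM in wild type, 87.4 and 74.7 in the male and 82.3 and 79.5 in the female knockouts. Both extremes came from the male knockout, whose libraries lay on either side of wild type. Means of 81 ± 8.95 (male), 80.9 ± 1.98 (female) and 77.4 ± 0.901 CPM (wild type) lay within this spread. The difference of both knockouts from wild type was 0.07 (SE 0.113, 95% interval -0.19 to 0.32, edgeR adjusted p = 0.732).

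Eya4, a gene of the otic vesicle and of hearing, varied widely within groups. It read 41.7 and 54.6 CPM in wild type, 49.5 and 40.4 in the male and 37.2 and 60.9 in the female knockouts. The lowest and the highest library were both female knockouts. Means were 49.1 ± 16.8 in the female knockout, 45 ± 6.43 in the male knockout and 48.2 ± 9.06 in wild type, and none differed beyond its spread. The difference of both knockouts from wild type was -0.04 (SE 0.203, 95% interval -0.50 to 0.43, edgeR adjusted p = 0.923).

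In counts, 0 of the 7 genes passed in the female knockout against wild type (edgeR, with 3 at an unadjusted p under 0.05, and 0 by DESeq2), where 1.12% of all genes tested passed. In the male knockout 0 of 7 passed (2 at an unadjusted p under 0.05, and 1 by DESeq2) against 2.34% of genes. For the mean of both knockouts 0 of 7 passed (3 at an unadjusted p under 0.05, and 2 by DESeq2) against 5.11% of genes. The female and male comparisons share their wild-type libraries. Directly compared, the female and the male knockout differed in 0 of 7 genes (0 at an unadjusted p under 0.05, and 0 by DESeq2) against 0.0344% of genes, and the largest such differences, both -0.14, were those of Eya1 (95% interval -0.45 to 0.17) and Eya2 (-0.50 to 0.22). The median log2 difference between both knockouts and wild type was 0.07 over the 7 genes, with 4 of 7 above 0, and 0.01 over all genes tested. By level alone, 3 of the 7 (Six2, Six5, Eya2) had all 4 knockout libraries above both wild-type libraries, as did 18.8% of all genes, and 1 (Eya1) had all 4 below, as did 20.1%. With library totals, which move the median of all genes from 0.01 to -0.11, those shares were 9.83% and 29.5%, and Six2, Eya2 and Eya1 still separated while Six5 did not.

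**Figure D2:**
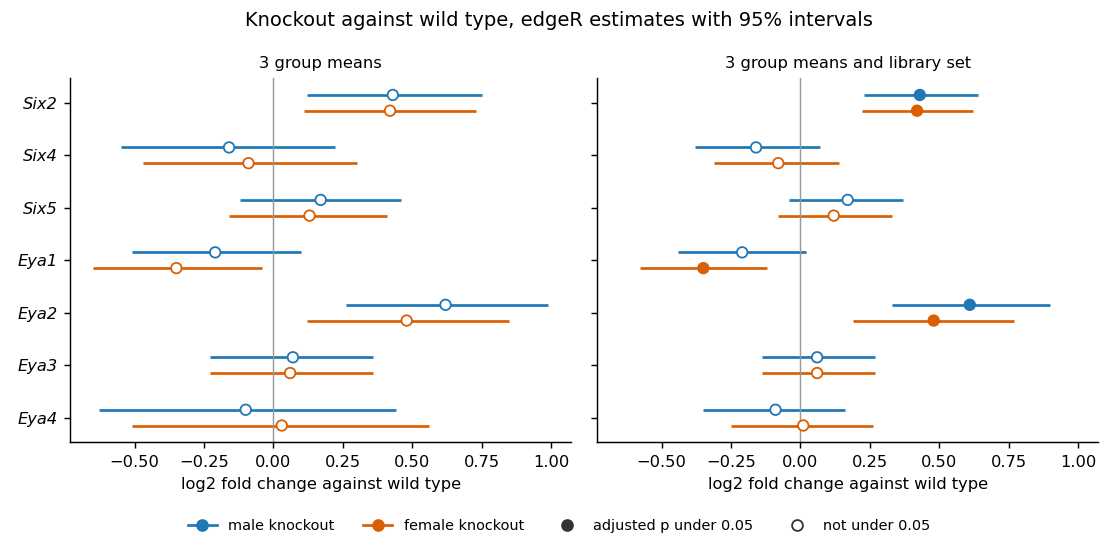
Log2 fold change against wild type (x axis) with 95% intervals from edgeR for each gene (y axis), male knockout in blue and female knockout in orange. Filled points have an adjusted p under 0.05, of which there are none in the fit of 3 group means (left) and 5 in the fit that adds the library set (right): Six2 and Eya2 in both sexes, and Eya1 in females.

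Since each library set holds 1 library of each genotype, the differences could also be read within a set, 1 library against 1. For Six2 the male and female knockout exceeded wild type by 0.30 and 0.30 log2 units in set A and by 0.57 and 0.55 in set B. Six2 was thus higher in 4 of 4 within-set differences. For Six2, Eya2, Eya1 and Six5 this shared sign follows from the separation of all 4 knockout libraries from wild type. It is therefore no further check, and only the sizes add to it. For Eya2 the differences were 0.88 and 0.63 in set A and 0.33 and 0.33 in set B, again higher in 4 of 4. For Eya1 they were -0.33 and -0.50 in set A and -0.09 and -0.20 in set B, lower in 4 of 4. Those of Six4 were also all below 0, from -0.24 to -0.01, and those of Six5 all above it, from 0.06 to 0.27. Eya3 (-0.04 to 0.16) and Eya4 (-0.17 to 0.16) had differences of both signs.

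**Figure D3:**
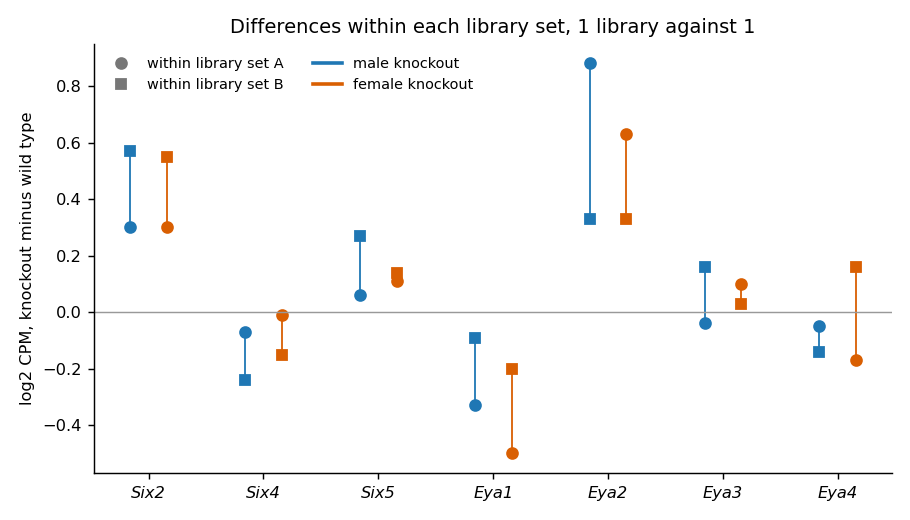
Log2 difference between a knockout and the wild-type library of the same set (y axis) for each gene (x axis), in set A (circles) and set B (squares), with a line joining the sets for each sex. Six2 and Eya2 lie above 0 and Eya1 below 0 in all 4 comparisons, as their separation by level requires. Eya4 changes sign in the female knockout.

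Adding the library set to the model narrowed the intervals and left the estimates almost as they were. Six2 was then higher in the mean of both knockouts by 0.43 (SE 0.078, edgeR adjusted p = 0.00456), Eya2 by 0.55 (SE 0.112, edgeR adjusted p = 0.00728), and Eya1 was lower at -0.28 (SE 0.0882, edgeR adjusted p = 0.0371). In this fit 3 of the 7 passed for the mean of both knockouts against 32.6% of all genes, 3 of 7 in the female knockout against 23.3%, and 2 of 7 in the male knockout against 24.7%. The female rise of Six2 (0.42, edgeR adjusted p = 0.0124) and Eya2 (0.48, adjusted p = 0.0278) and fall of Eya1 (-0.35, adjusted p = 0.0387) made up the 3, and the male rise of Six2 (0.43, adjusted p = 0.0105) and Eya2 (0.61, adjusted p = 0.0112) the 2. Facial mesenchyme markers moved in the same fit: for the mean of both knockouts 4 of 7 passed, with Twist1 (0.38, edgeR adjusted p = 0.00551), Alx1 (0.37, adjusted p = 0.0287) and Msx1 (0.39, adjusted p = 0.0336) higher and the collagen gene Col1a1 lower (-0.60, adjusted p = 0.00176). For Alx1 and Msx1 the groups overlapped (Alx1 123 CPM in wt1 and 121 in fko1, Msx1 203 in wt1 and 198 in fko2). The lowest library for both was wt2 (88.7 and 125 CPM). These 4 calls were not repeated with single libraries left out. The part of facial mesenchyme markers in the differences of Six2, Eya2 and Eya1 was not tested. Female against male knockout again gave 0 of 7, against 0.0482% of genes. This fit leaves few residual degrees of freedom and its calls rest on single libraries: in the female comparison 0 of 7 passed without fko1 or without fko2 and 1 without wt1. In the male comparison 1 passed without wt1 or without wt2, and 3 passed without mko2. In the mean of both 1 passed without wt1 and 4 without mko2.

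The library set itself separated Eya4. Its set B library exceeded its set A library in each genotype, 54.6 against 41.7 CPM in wild type, 49.5 against 40.4 in the male and 60.9 against 37.2 in the female knockout. The set difference of Eya4 was 0.46 on the log2 scale (SE 0.0925, 95% interval 0.25 to 0.67, edgeR adjusted p = 0.0199), which made 1 of the 7 genes against 14.4% of all genes tested. Six4 followed at 0.28 (SE 0.0814, 95% interval 0.09 to 0.46, edgeR adjusted p = 0.0513), also higher in set B in 3 of 3 genotypes. For the other 5 genes the set difference lay between -0.14 and 0.08 with intervals that include 0.

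**Figure D4:**
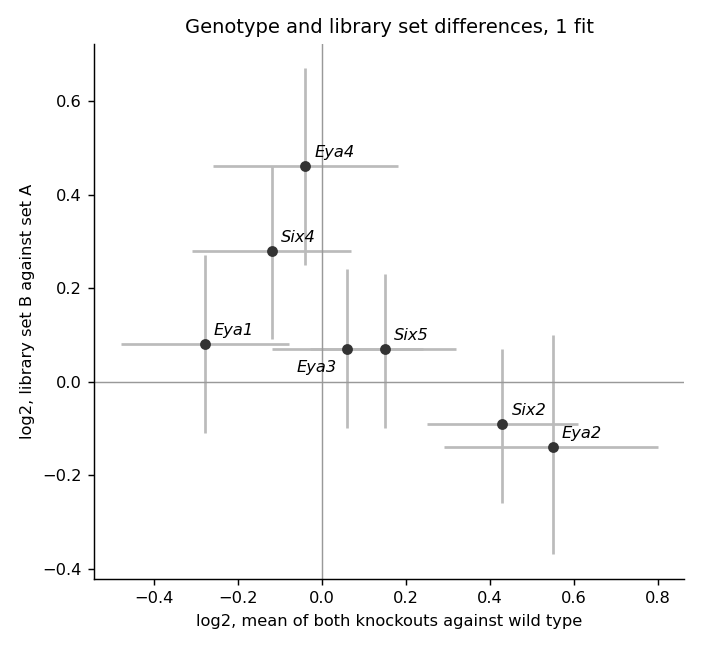
Log2 difference of both knockouts from wild type (x axis) against log2 difference of library set B from set A (y axis), both from the edgeR fit with the set as a term, with 95% intervals. Six2 and Eya2 lie to the right and Eya1 to the left of 0 near the zero line of the set, while Eya4 and Six4 lie above it with genotype intervals that include 0.

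Other parts of the network were read from lists chosen for their known roles. Six3, a forebrain and eye factor, is a neighbour of Six2 on its chromosome and read 13.3 and 19.9 CPM in wild type, 6.27 and 10.4 in the male and 4.7 and 9.3 in the female knockouts. Unlike Six2 beside it, Six3 was lower in all 4 knockout libraries (log2 difference -1.12, SE 0.294, edgeR adjusted p = 0.0655). Six3 passed with the set as a term (-1.10, edgeR adjusted p = 0.0136), as did 32.6% of all genes tested. It moved alongside the brain and neural tube markers given above, whose part in this difference was not tested, and it overlaps Six3os1, whose reads are uncertain without a stated strand setting. Six6, the closest relative of Six3, stood at 1.04 to 1.77 CPM (0.14, SE 0.326, edgeR adjusted p = 0.801).

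Among 8 cofactors (Dach1, Dach2, Sobp, Tle1, Tle2, Tle3, Tle4 and Aes), 0 passed in any of the 4 comparisons in the fit of 3 group means. The median difference of both knockouts from wild type was -0.38, against 0.01 over all genes tested, with 3 of 8 above 0. Sobp, which binds sine oculis proteins and is needed for hearing, had the smallest p. It read 68.6 and 78.9 CPM in wild type, 50.2 and 51.3 in the male and 45.2 and 61.5 in the female knockouts, lower in all 4 (-0.50, SE 0.14, edgeR adjusted p = 0.0761). Tle4, a Groucho repressor, read 79.6 and 98.7 in wild type, 68.6 and 67 in the male and 60.2 and 69.8 in the female knockouts, also lower in all 4 (-0.43, SE 0.126, edgeR adjusted p = 0.0912). With the library set as a term 5 of 8 passed for the mean of both knockouts, 4 lower (Sobp, Tle4, Tle2 and Dach2) and 1 higher, Aes, a short Groucho relative that opposes the longer ones (0.29, edgeR adjusted p = 0.0144). Of all genes tested 32.6% passed in that fit, and these 5 calls were not repeated with single libraries left out.

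Of 7 Pax genes, 2 passed for the mean of both knockouts, against 5.11% of all genes tested. Pax1, which patterns pharyngeal pouches and sclerotome, rose by 0.67 (SE 0.133, edgeR adjusted p = 0.0278). It read 49 and 46.9 CPM in wild type, 86.3 and 104 in the male and 66.5 and 55.2 in the female knockouts, so the 4 knockout libraries lay above wild type and the male pair highest. In the male knockout alone, where 2.34% of all genes passed, the difference was 0.99 (SE 0.151, edgeR adjusted p = 0.0199). Pax6, a brain and eye factor and one of the neural tube markers, fell by 1.25 on the log2 scale (SE 0.27, edgeR adjusted p = 0.0361), from 23.9 and 27.4 CPM to 6.59 to 14.1 CPM. Of the other 5 Pax genes none passed in any comparison of genotypes in this fit. Pax3, an early neural crest factor, read 46 and 49 CPM in wild type and 53.9 to 70.7 in the knockouts (0.33, SE 0.122, edgeR adjusted p = 0.147). It passed with the set as a term (0.32, edgeR adjusted p = 0.0311), as did 32.6% of all genes tested.

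Of 15 genes reported as targets of either family, 13 passed the filter on low counts; Myod1 and Myf5, the myogenic factors, did not. In the mean of both knockouts 1 of 13 passed and their median was -0.03, against 5.11% and a median of 0.01 over all genes tested. That gene was Sox2, a factor of neural and sensory progenitors, which fell by 0.81 on the log2 scale (SE 0.151, edgeR adjusted p = 0.0233), from 41.6 and 55.2 CPM to 24.7 to 31.8 CPM. Sox2 is also one of the brain and neural tube markers. Of the kidney targets of Eya1 and its partners, Sall1 read 10.5 and 15.2 CPM in wild type and 4.3 to 8.66 in the knockouts (-0.94, SE 0.242, edgeR adjusted p = 0.0601). It passed with the set as a term (-0.95, edgeR adjusted p = 0.00231), as did 32.6% of all genes tested. By contrast Gdnf, the nephric growth factor, read 3.53 to 4.75 CPM in all libraries (0.04, SE 0.198, edgeR adjusted p = 0.907). Hoxa2, a repressor of Six2 in the second pharyngeal arch, read 2.15 and 2.75 CPM in wild type, 5.18 and 2.22 in the male and 2.87 and 2.78 in the female knockouts, with overlapping groups (0.39, SE 0.345, edgeR adjusted p = 0.479).

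**Figure D5:**
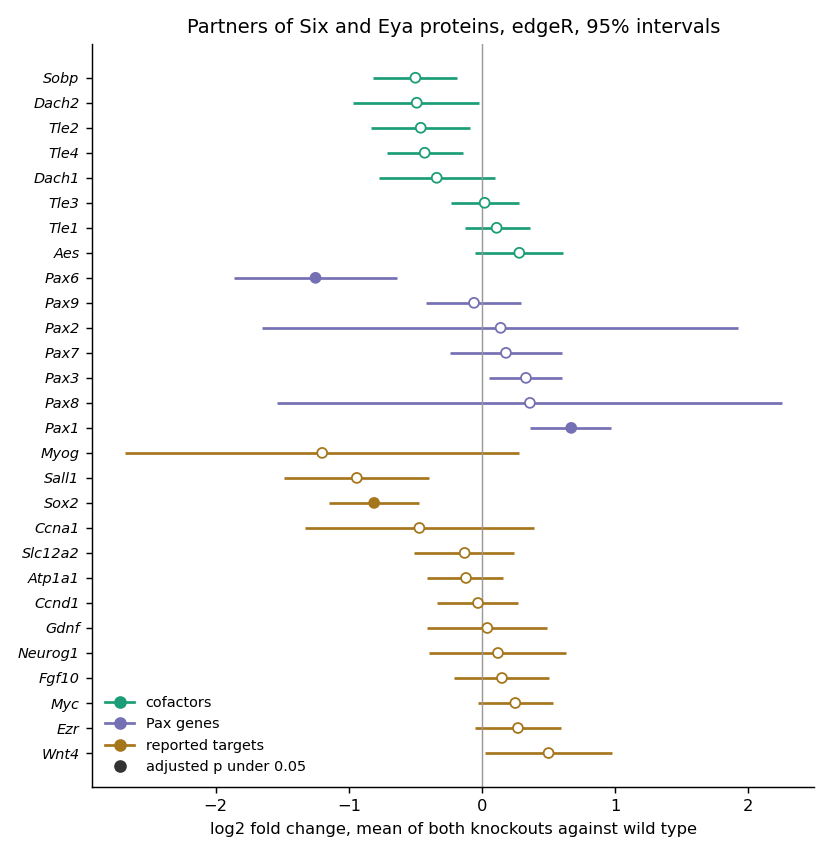
Log2 difference of both knockouts from wild type (x axis) with 95% intervals from the edgeR fit of 3 group means for the cofactors, Pax genes and reported targets that were tested (y axis). Filled points, Pax1 to the right and Pax6 and Sox2 to the left, have an adjusted p under 0.05, and 5 of the 8 cofactors lie left of 0.

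Finally, each gene's profile over the 6 libraries was compared with those of 11492 genes with a mean of at least 5 CPM, by the root mean square difference of centred log2 CPM. Nearest to Six2 were Slc35f2 (0.0183) and 2010111I01Rik (0.0259), with 353 genes within 0.1. Nearest to Eya2 were Glyctk (0.0377) and B3gnt2 (0.0502), with only 10 genes within 0.1, and nearest to Eya4 were Synpo2 (0.0537) and Tsc22d2 (0.0688), with 30. Eya2 and Eya4 also spanned the widest ranges, 0.88 and 0.71 log2 units from lowest to highest library. Nearest to Six5 was Fgfr1 (0.0162), a fibroblast growth factor receptor of facial mesenchyme, and then Phf10 (0.0238). Nearest to Six4 were LOC106740 (0.0274) and Dip2a (0.0281), to Eya1 Wdr60 (0.0332) and Megf6 (0.0359), and to Eya3 Klhl26 (0.0187) and AI480653 (0.0205). Between 232 and 1330 genes lay within 0.1 of these 4 genes and of Six2. These likenesses describe 6 libraries and were not tested.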

How the data were processed

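RNA was measured in 6 libraries. Per the labels' protocols, mRNA libraries were made with a stranded kit, and per the submitters' processing notes the tools included Trimmomatic, TopHat2, SAMtools and HTSeq (versions, annotation and strand setting not given in the sources used here) on build mm9. The deposited table holds the authors' raw read counts per gene. HTSeq's summary lines were kept out of library sizes and tests. edgeR 4.0.16 in R 4.3.3 fitted 3 group means to all 6 libraries (quasi-likelihood F test, TMM factors, filterByExpr), with Benjamini-Hochberg adjustment over the 14521 genes tested and a threshold of 0.05. Intervals are 95%. DESeq2 1.42.0, other scalings, no filter, a replicate block, only the groups compared, the library set as a term and leaving out each library were alternatives. Leaving out libraries within the library-set fit, the test of the set itself and scaling by library totals were added after seeing the data. The fit was tested on simulated data. Promoters were searched in Python 3.11.15, and plots drawn with matplotlib 3.10.9.

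The members and lists were chosen with earlier results of these data known. All 7 members are named. Of other lists, genes past the threshold in any comparison are named, or else the 2 with the smallest p; the set B genes, Six6, Pax3, Sall1, Gdnf, Hoxa2 and Dmpk were named beside that rule or as lists of 1. Genes most like a member are the 2 with the smallest difference among genes with a mean of at least 5 CPM (log2 with a prior count of 2). The deviations of same-numbered libraries correlated at 0.426 between wild type and female knockout, which share a library set by number, and at -0.237 and -0.231 between the male knockout and these 2 groups, so numbers were not taken as pairs. The histone and UTX peak files name no genes and no mm9 annotation was given, so peaks over these genes were not analysed here. The test of 1 marker gene is not reported here.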

Additional observations from a re-analysis of the deposited data

How the results depend on the processing

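The 7 genes gave 357 alternative fold changes, of which 320 kept their direction and side of the threshold, 15 newly passed, 0 lost a call and 22 changed sign, all of the last for differences that passed in no fit. With library totals the signs of Eya3 (female -0.06, male -0.05, both -0.06) and Eya4 (female -0.09) changed. Leaving out single libraries moved Six4 from -0.26 to 0.09 (female), -0.34 to 0.02 (male), -0.30 to 0.05 (both) and -0.06 to 0.19 (female against male), and Eya4 from -0.39 to 0.34, -0.28 to 0.09, -0.25 to 0.15 and -0.29 to 0.44 in the same order. Eya3 in males moved from -0.05 to 0.18 and between females and males from -0.11 to 0.11, Six5 between females and males from -0.14 to 0.06, and Eya2 from -0.32 to 0.07. Members called in females were 3 with the set as a term (0 to 3 when leaving out a library there). In males they were 1 by DESeq2, 1 from the 4 libraries compared and 2 with the set (1 to 3 leaving out a library), and 0 to 1 leaving out a library without the set. For both knockouts they were 2 by DESeq2, 3 with the set (1 to 4) and 0 to 1 without it. All genes called in females (163) were 500 by DESeq2, 3384 with the set, 33 from the 4 libraries compared, 329 under the replicate block, and 60 (without mko2) to 1048 (without fko2) leaving out a library. In males (340) they were 749 by DESeq2, 3589 with the set and 938 from the 4 libraries compared, and 2 (without mko2) to 990 (without fko2). For both (742) they were 4735 with the set and 215 (without mko1) to 2212 (without fko2). Between females and males the 5 became 5 to 9 (9 without fko1) leaving out a library and 4 by DESeq2. With the set, leaving out libraries gave 286 to 6148 in females, 1122 to 5559 in males, 1397 to 6844 for both and 13 to 530 between them. A group left with 1 library is assumed to vary like the others. The replicate block called 0 members in each comparison, and the library sets coincide with a crossed pairing of replicate numbers between males and the other groups. The cause of these shifts was not tested. The lowest count behind any member value was 478 reads.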

Other observations

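Some genes of the partner lists differed with the library set, as Eya4 did. They are named here after their values were seen, and Eya1 (0.08, edgeR adjusted p = 0.546) and Six2 (-0.09, adjusted p = 0.406) did not pass between the sets. Pax2, a factor of the otic vesicle, kidney and midbrain-hindbrain boundary, read 0.507, 0.443 and 0.849 CPM in the set A libraries wt1, mko2 and fko1, and 2.63, 1.84 and 4.39 CPM in the set B libraries wt2, mko1 and fko2. The sets did not overlap, and the difference was 2.28 on the log2 scale (SE 0.27). Its relative Pax8 stood at 0.127 to 0.261 CPM in set A and 0.832 to 1.16 CPM in set B (2.28, SE 0.443). Both rest on few reads, Pax2 on 7 to 13 in set A and 27 to 68 in set B, and Pax8 on 2 to 4 and 13 to 18. Each passed the filter on low counts only with set B, where it is high, so no p-value between the sets is given for them. Sall1 (0.54, edgeR adjusted p = 0.0351), Slc12a2, the ion transporter of the inner ear (0.33, adjusted p = 0.0359), and Dmpk (0.62, adjusted p = 0.0251) were also higher in set B, and Aes was lower (-0.25, adjusted p = 0.0352). Dach1 was higher in set B without passing (0.36, edgeR adjusted p = 0.0807). For comparison, 14.4% of all genes tested passed between the sets. What the sets stand for is not given in the labels, and the part of dissection in these values was not tested.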
